A study of Mus musculus with 9 samples.

Results

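The Kupffer cell genes described here are 10 genes chosen by symbol from the gene table: the lectin Clec4f, the complement receptor Vsig4, the dead cell receptor Timd4, the scavenger receptor Marco, the secreted protein Cd5l, the adhesion receptor Adgre1, the complement chains C1qa, C1qb and C1qc, and the folate receptor Folr2. All 10 were found among the 24532 genes of the table, and all 10 passed the filter on low counts that left 14731 genes tested. Liver messenger RNA of wild-type C57BL/6 mice was sequenced in 9 libraries, 3 per group. Every mouse, controls included, had received an escalating dose of thioacetamide (TAA), a liver toxin that causes fibrosis, into the peritoneum 2 times a week for 10 weeks. The group rhCYGB 2 weeks (libraries 17, 18 and 19) was also given rhCYGB, a recombinant form of human cytoglobin, which is an oxygen-binding globin, at 2 mg/kg into the tail vein 2 times a week during the last 2 weeks of thioacetamide. The group rhCYGB 5 weeks (libraries 23, 27 and 28) received the same dose in the same way during the last 5 weeks, and the group called TAA here (libraries 12, 13 and 14) received saline. Livers were taken 2 days after the last rhCYGB dose. No liver without thioacetamide was analysed here, and the protein given is human in a mouse host. Whether each numbered sample came from its own mouse is not stated in the labels, and the p-values therefore reflect only how these samples varied, which may be technical.

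Kupffer cells are the resident macrophages of the liver. They sit in the sinusoids, where they take up particles, dead cells and aged red cells from the blood. In mice Clec4f is the marker most restricted to these cells, Timd4 marks long-established residents, and Vsig4, Marco, Cd5l and Folr2 mark tissue macrophages of this kind. Adgre1, which encodes F4/80, and the C1q chains are made by macrophages more widely, so monocyte-derived macrophages that enter an injured liver also contribute to them. C1q, built from an A, a B and a C chain, is the recognition part of the first component of complement.

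Upstream sequences of 5 members are shown because of how their levels varied, as described below. Clec4f and Folr2 varied together in CPM, and Marco varied apart from all other members. C1qb and C1qc are neighbours whose profiles were less close (distance 0.20 log2 units) than those of C1qa and C1qb (0.10). The set of RefSeq (GRCm38.p6) windows used here covered 8 of the 10 members and held no window for C1qa or Adgre1. Each sequence is the 250 bases before the start annotated by RefSeq, 5′ to 3′ on the gene's strand, and capitals mark a match to a searched motif. For Marco and C1qb this start differed from that of the authors' transcript. The authors' Marco transcript begins, on the minus strand, at 120505084, so the last bases of the window shown lie inside it. Their C1qb transcript begins at 136886177, short of its window.
Clec4f: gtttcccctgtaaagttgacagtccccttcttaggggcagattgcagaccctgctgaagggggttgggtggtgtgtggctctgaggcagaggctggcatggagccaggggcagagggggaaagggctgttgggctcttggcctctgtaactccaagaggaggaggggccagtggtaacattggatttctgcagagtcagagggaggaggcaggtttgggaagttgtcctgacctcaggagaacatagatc
Folr2: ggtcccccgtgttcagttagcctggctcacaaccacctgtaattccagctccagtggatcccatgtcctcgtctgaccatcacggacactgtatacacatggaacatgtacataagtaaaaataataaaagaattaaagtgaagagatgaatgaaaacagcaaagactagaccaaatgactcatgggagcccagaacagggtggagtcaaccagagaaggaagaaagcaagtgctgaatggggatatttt
C1qb: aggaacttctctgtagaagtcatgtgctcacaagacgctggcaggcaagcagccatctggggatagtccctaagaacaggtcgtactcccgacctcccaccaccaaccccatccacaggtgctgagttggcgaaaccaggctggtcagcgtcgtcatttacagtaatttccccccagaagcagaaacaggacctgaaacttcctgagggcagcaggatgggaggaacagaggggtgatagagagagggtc
C1qc: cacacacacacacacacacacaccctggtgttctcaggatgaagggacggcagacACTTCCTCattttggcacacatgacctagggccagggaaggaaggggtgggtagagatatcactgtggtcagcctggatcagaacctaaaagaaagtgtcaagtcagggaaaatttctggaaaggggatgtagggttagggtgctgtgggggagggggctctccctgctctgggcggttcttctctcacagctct
Marco: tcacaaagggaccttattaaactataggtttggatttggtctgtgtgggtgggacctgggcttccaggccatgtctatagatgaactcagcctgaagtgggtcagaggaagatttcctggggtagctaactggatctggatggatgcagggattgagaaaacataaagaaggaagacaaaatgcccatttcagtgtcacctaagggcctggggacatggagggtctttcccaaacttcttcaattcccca
These windows lie at chr6:83656117-83656366 (Clec4f), chr7:101845332-101845581 (Folr2), chr4:136886201-136886450 (C1qb), chr4:136892915-136893164 (C1qc) and chr1:120505025-120505274 (Marco), all on the minus strand. The motifs searched on both strands were GAGGAAGT for the macrophage factor PU.1, GGAA with GAAA 2 bases further on for PU.1 with an interferon regulatory factor, TGCTGAC for the core of a MAF site, AGGTCA repeated after 4 bases for the liver X receptor and TATAAA for a TATA box. The first was found in 1 of 9 member windows, that of C1qc, 195 to 188 bases before the start, and in 2.44% of all 32851 windows of the same length. The second was found in the Timd4 window and in a Folr2 window belonging to a start whose transcript had at most 2 reads, and in 2.3% of all windows. The MAF core was found in the Timd4 window alone among members and in 3.81% of all windows. The liver X receptor repeat (0.0152% of all windows) and the TATA box (12.4%) were in no member window.

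The libraries held 55655727 to 87289945 estimated reads, the deepest being library 18 of the 2-week group. The 10 members together took 0.0521% to 0.0875% of the reads in the 2-week libraries, 0.0445% to 0.0574% in the 5-week libraries and 0.0622% to 0.0779% in the TAA libraries. The lowest member count was 152 estimated reads, for Timd4 in TAA library 12. All 14 listed hepatocyte markers were detected and tested, with a summed level of 127100 to 162832 CPM in the 2-week libraries, 128055 to 163083 CPM in the 5-week libraries and 112798 to 124607 CPM in the TAA libraries. CPM is the read count scaled to a common library size with TMM, edgeR's trimmed mean of M-values.

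Levels of different genes were compared as FPKM, the authors' fragment counts scaled by transcript length and by library depth. The C1q chains were the most abundant members, with medians over the 9 libraries of 114 FPKM for C1qb, 105 FPKM for C1qa and 86.3 FPKM for C1qc. Their order changed between libraries, and each of the 3 chains was the highest member in at least 1 library. Cd5l followed with a median of 56.5 FPKM and ranked above a C1q chain only in 5-week library 23. Clec4f had a median of 39.1 FPKM and ranked 4 or 5 among the members in every library. Vsig4 (23.4 FPKM), Folr2 (11.01 FPKM) and Marco (10.7 FPKM) came next. Vsig4 lay above Folr2 in all 9 libraries, while Marco, which spanned 9.10 to 34.9 FPKM, changed places with both. Adgre1, at a median of 4.91 FPKM, lay below those members in all 9 libraries, and Timd4, at 1.99 FPKM, lay below Adgre1.

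The first comparison, rhCYGB 2 weeks against TAA, concerns treatment confined to the end of the injury. Clec4f (gene ID 51811, mm10 chromosome 6, 83644542 to 83656116) was the only 1 of the 10 members called, where 3.31% of all tested genes were called. A member that was not called is not thereby shown to be unchanged. It stood at 114, 115 and 149 CPM in the 2-week libraries, at 74.6, 106 and 83.0 CPM in the 5-week libraries and at 57.4, 80.7 and 72.0 CPM in the TAA libraries. Every 2-week library lay above every TAA library, as for 17.3% of all genes, and the 5-week libraries overlapped TAA. Clec4f rose 1.80-fold at 2 weeks, to 126 ± 20.1 CPM in the 2-week libraries against 70.0 ± 11.7 CPM in the TAA libraries (SD, n = 3 each, log2 change 0.85 ± 0.18 SE, edgeR quasi-likelihood test, adjusted p = 0.0411). In these bulk samples fewer cells of a type and less RNA per cell cannot be told apart, nor can more cells and more RNA per cell.

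The Clec4f call depended on the scaling and on single libraries. Across 18 alternatives the log2 change stayed between 0.50 and 1.09 and was called in 7. The 1.09 came with libraries 17, 18 and 23 left out, where library 19 alone stood for the 2-week group. With single libraries left out the log2 change was at most 0.94. It was 0.52 (adjusted p = 0.0939) with library totals alone, 0.79 (adjusted p = 0.0595) with upper quartile scaling, 0.50 (adjusted p = 0.0907) on log2(FPKM + 1), 0.85 with DESeq2 (adjusted p = 6.14e-04) and 0.82 (adjusted p = 0.0355) with the trend over transcript length removed. The call was lost without TAA library 12, 13 or 14, 2-week library 17, 18 or 19, or 5-week library 28, with adjusted p from 0.0703 to 0.124. Library totals moved the median of all genes by -0.33. Clec4f lay 0.88 above the median of all genes on the log2 scale with TMM and with totals. A change of scaling moves all genes nearly alike, so this distance could hardly differ and says nothing about the call. On log2(FPKM + 1), which is not a pure rescaling, Clec4f lay 0.70 above the median. With the length trend removed it lay 0.84 above.

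**Figure D1:**
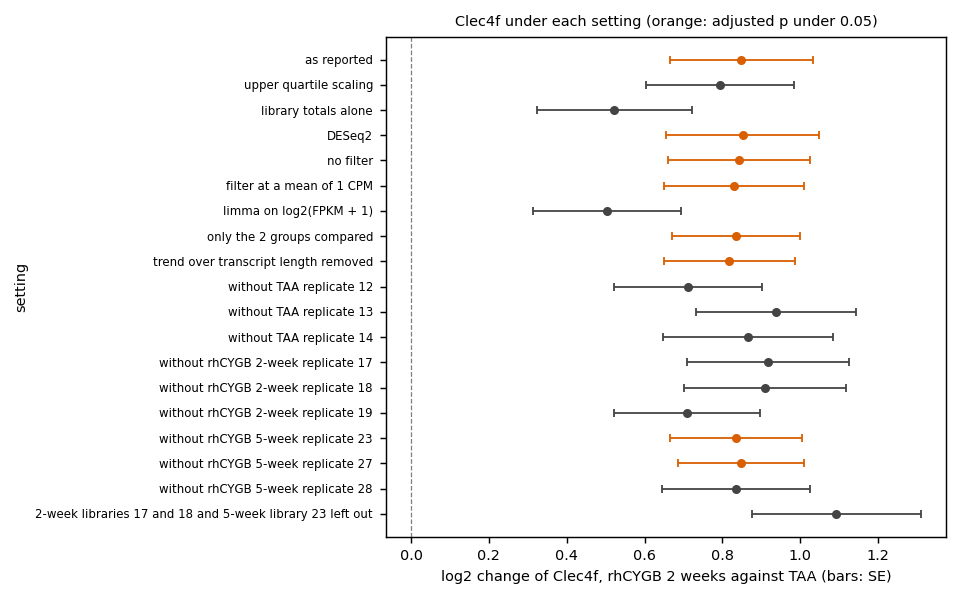
Log2 change of Clec4f, rhCYGB 2 weeks against TAA (horizontal axis), as reported and under 18 alternatives (vertical axis); points are estimates, bars are SE and orange marks an adjusted p under 0.05. All points lie between 0.50 and 1.09, and 7 of the alternatives pass the threshold.

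Folr2, which encodes folate receptor beta, followed the same order (gene ID 14276, mm10 chromosome 7, 101839988 to 101857190). It had 14.01, 15.1 and 19.8 CPM in the 2-week libraries, 9.57, 16.0 and 10.4 CPM in the 5-week libraries and 8.32, 12.1 and 10.7 CPM in the TAA libraries. The 2-week libraries again lay above all TAA libraries, with no overlap, but the change was not called (log2 change 0.65 ± 0.23, edgeR adjusted p = 0.137). Its log2 value was 0.32 with library totals alone and 0.29 on log2(FPKM + 1), beside medians of all genes of -0.36 and -0.20. It was 0.35 with the length trend removed and 0.48 without 2-week library 19. Of its 3 RefSeq transcripts, NM_008035 took 72.0%, 85.6% and 77.7% of the Folr2 reads in the 2-week libraries, 81.5%, 64.7% and 86.4% in the 5-week libraries and 62.9%, 78.6% and 63.8% in the TAA libraries. Those ranges overlap, and NM_001303231 took nearly all of the rest. The transcripts overlap in position, so the split between them is an estimate.

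The C1q genes lie side by side on mm10 chromosome 4 within 18700 bases, in the order C1qb (gene ID 12260, 136880145 to 136886177), C1qc (gene ID 12262, 136889802 to 136892914) and C1qa (gene ID 12259, 136895916 to 136898844). C1qa had 127, 153 and 150 CPM in the 2-week libraries, 58.9, 115 and 90.0 CPM in the 5-week libraries and 108, 97.4 and 121 CPM in the TAA libraries. The 2-week libraries lay above both other groups, and the 5-week libraries spread widely around TAA. C1qb had 114, 137 and 135 CPM in the 2-week libraries, 54.0, 110 and 80.8 CPM in the 5-week libraries and 115, 104 and 117 CPM in the TAA libraries. C1qc had 82.9, 102 and 126 CPM in the 2-week libraries, 62.9, 89.3 and 81.5 CPM in the 5-week libraries and 97.6, 95.4 and 99.8 CPM in the TAA libraries. All 3 chains were lowest in 5-week library 23. At 2 weeks the log2 changes against TAA were 0.40 ± 0.22 for C1qa (edgeR adjusted p = 0.283), 0.20 ± 0.22 for C1qb (edgeR adjusted p = 0.591) and 0.09 ± 0.17 for C1qc (edgeR adjusted p = 0.777), so none was called. With library totals alone C1qa stood at 0.08, C1qb at -0.12 and C1qc at -0.23, where the median of all genes was -0.36. On log2(FPKM + 1) they stood at 0.07, -0.13 and -0.26, where that median was -0.20. With the length trend removed they stood at 0.10, -0.10 and -0.21, and these transcripts are short, at 1082, 1062 and 1054 bases.

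At 5 weeks no C1q chain was called against TAA by edgeR or DESeq2, where edgeR called 1.29% of all genes. C1qb averaged 81.6 ± 27.96 CPM in the 5-week libraries and 112 ± 6.83 CPM in the TAA libraries (log2 change -0.46 ± 0.22, edgeR adjusted p = 0.290, and from -0.73 without library 27 to -0.25 without library 23). C1qc averaged 77.9 ± 13.6 CPM in the 5-week libraries and 97.6 ± 2.20 CPM in the TAA libraries (log2 change -0.33 ± 0.18, edgeR adjusted p = 0.344), and was the only member whose 5-week libraries all lay below TAA, as 13.4% of all genes did. C1qa was at -0.30 ± 0.21 on the log2 scale (edgeR adjusted p = 0.478), and between -0.54 without library 27 and -0.10 without library 23. With library totals alone C1qa, C1qb and C1qc stood at -0.53, -0.69 and -0.55 (edgeR adjusted p = 0.160, 0.0920 and 0.130). On log2(FPKM + 1) they stood at -0.57, -0.73 and -0.56 (limma adjusted p = 0.123, 0.0670 and 0.102). The median of all genes was itself -0.21 with totals and -0.13 on log2(FPKM + 1). With the length trend removed the 3 chains stood at -0.34, -0.50 and -0.34 (edgeR adjusted p = 0.203, 0.0899 and 0.297). Within a library C1qa and C1qb kept nearly fixed proportions, their log2 ratio spanning 0.26 over the 9 libraries, against 0.69 for C1qc to C1qb. The log2 ratio of C1qa to C1qb counts was 0.15, 0.16 and 0.14 in the 2-week libraries, 0.13, 0.07 and 0.16 in the 5-week libraries and -0.10, -0.10 and 0.05 in the TAA libraries. All 6 rhCYGB libraries were above the 3 TAA libraries in this ratio, by a small amount that does not depend on the scaling; the ratio was picked after the values were seen and was not tested.

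**Figure D2:**
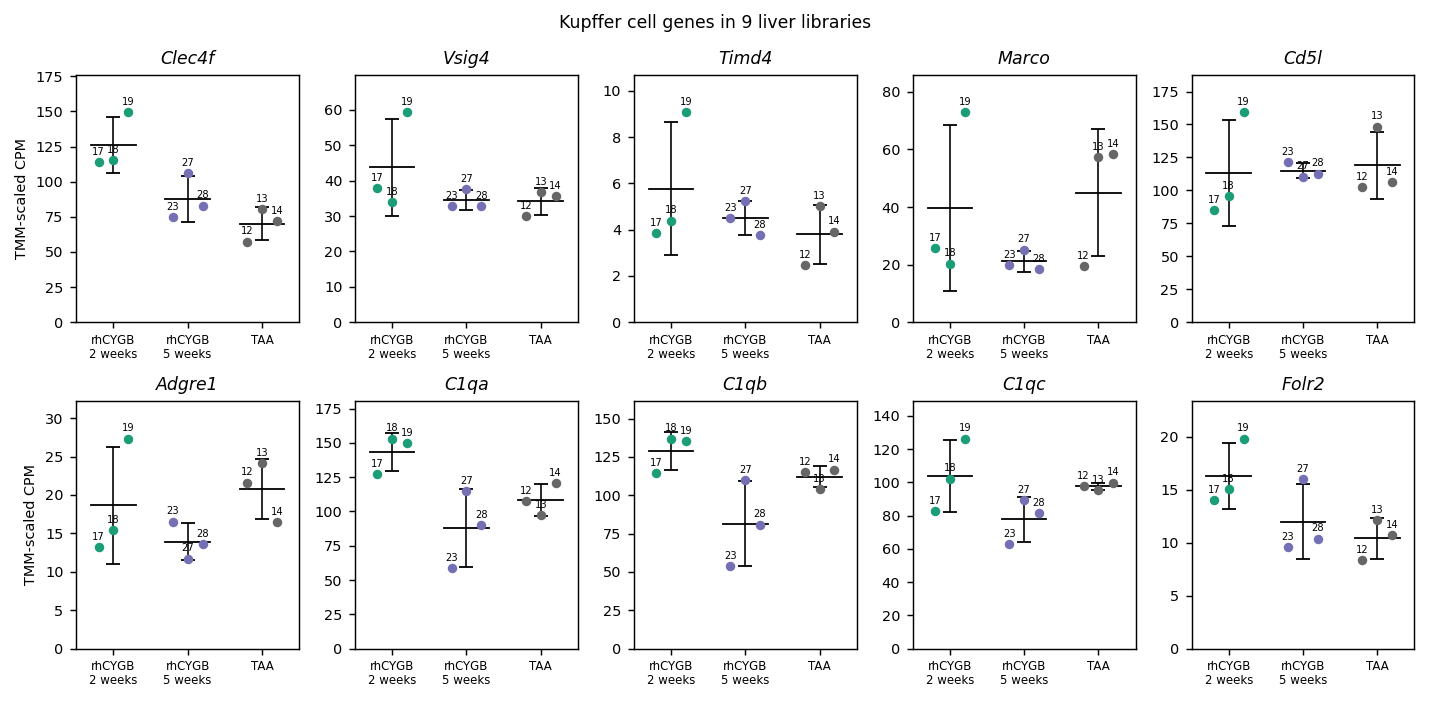
TMM-scaled CPM (vertical axes, from 0) of the 10 Kupffer cell genes in each library of the groups rhCYGB 2 weeks, rhCYGB 5 weeks and TAA; points carry the library number, and bars show the mean and SD of 3 libraries. Clec4f, Folr2 and C1qa lie above TAA in all 2-week libraries, while Marco splits within 2 of the groups.

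Marco, a scavenger receptor for bacteria and modified lipoproteins (gene ID 17167, mm10 chromosome 1, 120474538 to 120505084), varied most among the members. It had 25.7, 20.3 and 72.9 CPM in the 2-week libraries, 19.8, 25.2 and 18.5 CPM in the 5-week libraries and 19.4, 57.3 and 58.3 CPM in the TAA libraries. Library 19 stood apart within the 2-week group and library 12 within TAA, and the 5-week libraries were all low. The spread over the 9 libraries was 3.95-fold. The log2 change was -0.18 ± 0.50 at 2 weeks (edgeR adjusted p = 0.843) and -1.09 ± 0.51 at 5 weeks (edgeR adjusted p = 0.281). The 5-week mean of 21.2 ± 3.56 CPM was set against 45.01 ± 22.2 CPM in TAA, and TAA library 12 lay inside the 5-week range. Leaving out 2-week library 19 took the 2-week value to -0.97, and leaving out TAA library 12 took the 5-week value to -1.46, with neither called.

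Timd4, which binds phosphatidylserine on dying cells, was scarce (gene ID 276891, mm10 chromosome 11, 46810799 to 46844333). It had 3.86, 4.40 and 9.07 CPM in the 2-week libraries, 4.51, 5.24 and 3.78 CPM in the 5-week libraries and 2.47, 5.01 and 3.91 CPM in the TAA libraries. The groups overlapped, with library 19 at the top and library 12 at the bottom. The log2 change of Timd4 was 0.60 ± 0.35 at 2 weeks (edgeR adjusted p = 0.321, and 0.12 without library 19) and 0.24 ± 0.35 at 5 weeks (edgeR adjusted p = 0.758, and 0.01 without library 12).

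Vsig4, a receptor for complement C3b fragments (gene ID 278180, mm10 chromosome X, 96247203 to 96293438), stood apart in library 19 alone. It had 38.0, 34.0 and 59.3 CPM in the 2-week libraries, 32.8, 37.7 and 32.9 CPM in the 5-week libraries and 29.9, 36.8 and 35.6 CPM in the TAA libraries. Its log2 change was 0.36 ± 0.20 at 2 weeks (edgeR adjusted p = 0.300, and 0.08 without library 19) and 0.01 ± 0.20 at 5 weeks (edgeR adjusted p = 0.980, 95% interval -0.43 to 0.46). Cd5l, a secreted protein that keeps macrophages alive (gene ID 11801, mm10 chromosome 3, 87357881 to 87371074), had 84.8, 95.4 and 159 CPM in the 2-week libraries, 121, 111 and 113 CPM in the 5-week libraries and 103, 148 and 106 CPM in the TAA libraries. The groups overlapped fully. Its log2 change was -0.07 ± 0.23 at 2 weeks (edgeR adjusted p = 0.866) and -0.05 ± 0.23 at 5 weeks (edgeR adjusted p = 0.931, 95% interval -0.58 to 0.47).

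Adgre1, the F4/80 adhesion receptor found on most mouse macrophages (gene ID 13733, mm10 chromosome 17, 57358686 to 57483529), had 13.2, 15.5 and 27.3 CPM in the 2-week libraries, 16.5, 11.7 and 13.6 CPM in the 5-week libraries and 21.6, 24.2 and 16.5 CPM in the TAA libraries. Library 19 was above all TAA libraries and the other 2-week libraries were below them. The 5-week libraries were the lowest as a group and met TAA at library 14. The log2 change of Adgre1 was -0.15 ± 0.27 at 2 weeks (edgeR adjusted p = 0.750, and -0.54 without library 19) and -0.57 ± 0.27 at 5 weeks (edgeR adjusted p = 0.284).

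Counted together at 2 weeks, 1 of 10 members was called (Clec4f, higher), where 3.31% of all tested genes were called and 1.98% were called higher. An unadjusted p under 0.05 was reached by 2 members, Clec4f and Folr2, and by 23.4% of all genes. The 2-week and TAA libraries did not overlap for 3 of 10 members (Clec4f, Folr2 and C1qa, all higher), against 17.3% of all genes that lay higher without overlap and 33.7% in either direction. Of the 10 members 3 had values below 0 (52.9% of all genes did). The members' median log2 change was 0.28 beside -0.03 over all genes, and 0.10 without library 19, in which 8 of the 10 members had their highest level of all 9 libraries. With library totals alone the members' median was -0.04 beside -0.36 over all genes, on log2(FPKM + 1) it was -0.07 beside -0.20, and with the trend over transcript length removed it was 0.01 beside -0.02, with 5 of 10 members below 0. At 5 weeks 0 of 10 members were called by edgeR, DESeq2 or limma on FPKM, where 1.29% of all genes were called by edgeR, and 0 had an unadjusted p under 0.05, where 19.2% of all genes did. Unadjusted, 5 members passed with library totals alone, 4 on log2(FPKM + 1), 3 with upper quartile scaling and 3 with the length trend removed. The shares of all genes that passed under these settings were not counted, so these counts say nothing particular about the members. The libraries did not overlap for 1 of 10 members (C1qc, lower), against 13.4% of all genes lower and 25.0% in either direction. Of the 10 members 6 had values below 0, where 48.6% of all genes did. The median was -0.18 beside 0.01 over all genes, and -0.40 beside -0.21 with library totals alone and -0.40 beside -0.13 on log2(FPKM + 1). Both comparisons share the TAA libraries.

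**Figure D3:**
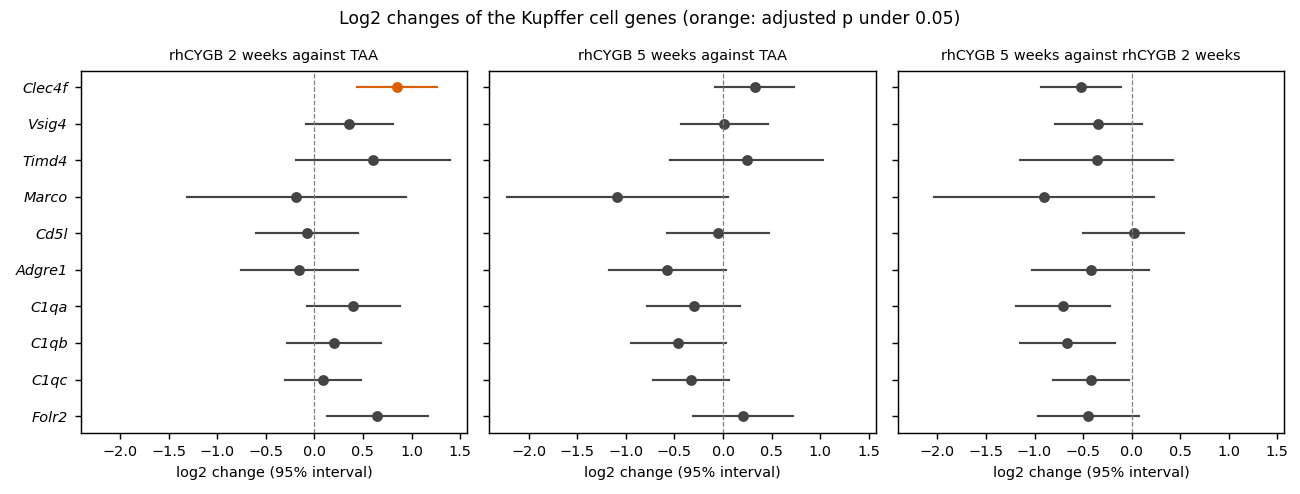
Log2 change (horizontal axes) with its 95% interval for the 10 Kupffer cell genes in the 3 comparisons; orange marks an adjusted p under 0.05 by edgeR's quasi-likelihood test. Clec4f at 2 weeks is the only called gene, and 9 of 10 values lie below 0 for rhCYGB 5 weeks against rhCYGB 2 weeks.

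The comparison of rhCYGB 5 weeks with rhCYGB 2 weeks concerns the length of treatment. Of the 10 members 9 had values below 0, where 51.1% of all genes did, with a median of -0.43 beside -0.01 over all genes. None was called by edgeR, where 0.0204% of all genes were called, while limma on FPKM called 0, DESeq2 called 1 (C1qa, adjusted p = 0.0433) and 4 members had an unadjusted p under 0.05 by edgeR (23.2% of all genes did). Of all genes DESeq2 called 5.35% and limma 0.0339%. The 4 were C1qa, at 88.0 ± 28.1 CPM in the 5-week libraries against 143 ± 14.03 CPM in the 2-week libraries (log2 change -0.70 ± 0.22, edgeR adjusted p = 0.173), C1qb (-0.66 ± 0.22, edgeR adjusted p = 0.177), Clec4f (-0.52 ± 0.18, edgeR adjusted p = 0.180) and C1qc (-0.41 ± 0.18, edgeR adjusted p = 0.203). For C1qa, C1qb and Clec4f every 5-week library lay below every 2-week library, and 10.2% of all genes did so (21.1% in either direction). Without 5-week library 27 these 3 genes were called (adjusted p = 0.0410, 0.0410 and 0.0466) among 1889 genes, while without library 23 C1qa stood at -0.49 and was not called. Without 2-week library 19 the members' median was -0.18. With the length trend removed C1qa stood at -0.44, C1qb at -0.40, Clec4f at -0.49 and C1qc at -0.13, with no member called. The members' median was then -0.35 beside -0.01 over all genes, and 9 of 10 values lay below 0.

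The members differed in how closely their levels varied together over the 9 libraries. Likeness was measured as the root mean square (RMS) distance between log2 CPM profiles, each centred on its own mean, with no test. The closest pairs were C1qa with C1qb at 0.10 and Clec4f with Folr2 at 0.11 log2 units. The profiles were not corrected for transcript length. C1qc lay 0.20 from C1qb. Vsig4 lay 0.22 from Folr2, 0.23 from C1qc, 0.25 from Cd5l and 0.25 from Clec4f, so apart from Marco no sharp division was seen. Marco lay at least 0.59 from every other member. Among 12404 other genes averaging 1 CPM or more, those nearest to Clec4f were the respiratory chain subunit gene Uqcrq (0.13), the complement factor properdin gene Cfp (0.16), Nudt6 (0.16), 2010320M18Rik (0.16), the galactokinase gene Galk1 (0.17) and Fam213b (0.17). Those nearest to C1qb were Ssbp4 (0.06), the hepcidin gene Hamp (0.09), the macrophage marker Aif1 (0.10), the cytokine receptor gene Il2rg (0.10), Spi1, which encodes PU.1 (0.11), and the myeloid adaptor gene Tyrobp (0.12). For Marco, a seed added after the values were seen, the nearest gene was the transcription inhibitor gene Id3, as far off as 0.42.

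**Figure D4:**
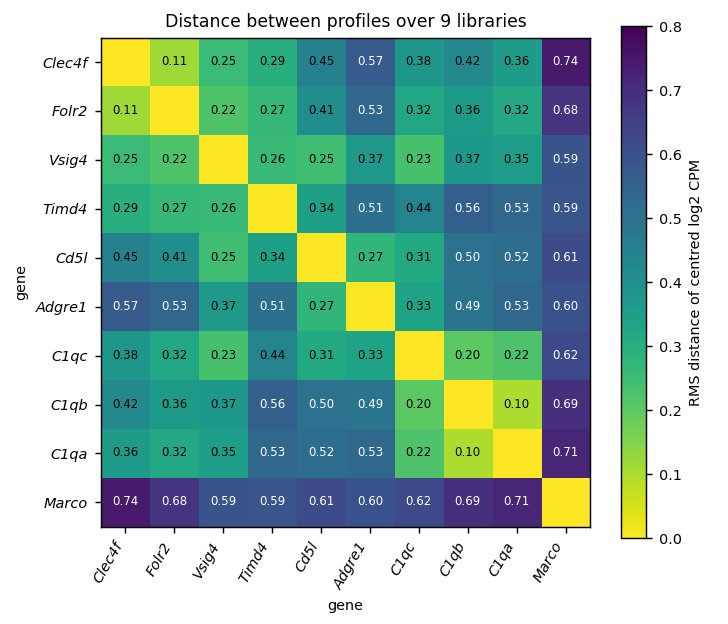
RMS distance, in log2 units, between the centred log2 CPM profiles of each pair of Kupffer cell genes over the 9 libraries; rows and columns are genes, and yellow is near. C1qa with C1qb and Clec4f with Folr2 are the nearest pairs, and Marco is far from all.

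Ratios within a library do not depend on how libraries are scaled, though a trend over transcript length can alter them. Clec4f was used as the base after its values were seen, so the ratios are a description without a test. Clec4f was itself called higher at 2 weeks, so a gene with a steady level would also lie lower relative to it there. The share of all tested genes whose ratio to Clec4f separates the groups was not counted. The log2 ratio of Folr2 to Clec4f kept within 0.30 log2 units over the 9 libraries. Their transcripts differ in length, at 1080 bases for Folr2 and 2400 bases for Clec4f. With the length trend removed the 2-week log2 changes against TAA were 0.35 for Folr2 and 0.82 for Clec4f. Without that step they were closer, at 0.65 and 0.85. The log2 ratio of Adgre1 to Clec4f was -3.11, -2.90 and -2.45 in the 2-week libraries, -2.17, -3.18 and -2.61 in the 5-week libraries and -1.41, -1.74 and -2.13 in the TAA libraries. That of C1qb to Clec4f was 0.01, 0.25 and -0.14 in the 2-week libraries, -0.47, 0.05 and -0.04 in the 5-week libraries and 1.01, 0.37 and 0.70 in the TAA libraries. For both genes all 6 rhCYGB libraries lay below the 3 TAA libraries, and so it was for Vsig4, at -1.58, -1.76 and -1.33 in the 2-week libraries, -1.19, -1.49 and -1.34 in the 5-week libraries and -0.94, -1.13 and -1.01 in the TAA libraries. Relative to Clec4f, Cd5l and Folr2 lay below TAA in all 2-week libraries but overlapped TAA at 5 weeks, Marco overlapped TAA at 2 weeks and lay below it at 5 weeks, and Timd4 overlapped TAA at both times. The log2 ratio of Clec4f to Csf1r, the receptor on which macrophages depend, was 0.87, 0.63 and 0.98 in the 2-week libraries, 0.51, 0.78 and 0.64 in the 5-week libraries and -0.46, 0.18 and 0.14 in the TAA libraries, again with no overlap between rhCYGB and TAA. Csf1r itself averaged close to TAA at 2 weeks (log2 change -0.02 ± 0.13, edgeR adjusted p = 0.931) and was lower without a call at 5 weeks (-0.37 ± 0.13, edgeR adjusted p = 0.172).

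**Figure D5:**
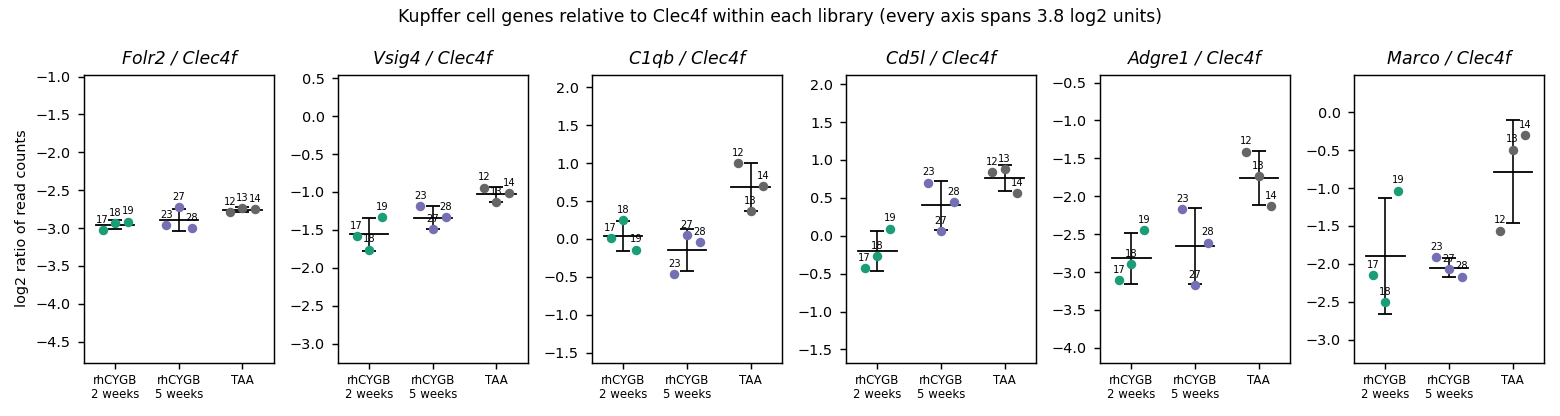
Log2 ratio of read counts of 6 Kupffer cell genes to Clec4f in each library (vertical axes, each of equal span) for rhCYGB 2 weeks, rhCYGB 5 weeks and TAA; points carry the library number, and bars show the mean and SD of 3 libraries. Folr2 keeps a nearly constant ratio, without a correction for transcript length. Adgre1, C1qb and Vsig4 are lower relative to Clec4f in all rhCYGB libraries than in any TAA library. Clec4f was itself called higher at 2 weeks. Cd5l overlaps TAA at 5 weeks and Marco at 2 weeks.

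Other lists of the same cells and their surroundings were read from the same test, and edgeR called few of their genes. Over all genes at 2 and 5 weeks, an unadjusted p under 0.05 was reached by 23.4% and 19.2%, while edgeR called 3.31% and 1.29%, DESeq2 11.6% and 8.06% and limma on FPKM 13.5% and 6.80%. Counts near these shares say nothing particular about a list. Of 20 further Kupffer cell genes edgeR called 0 at 2 weeks and 0 at 5 weeks (medians 0.14 and 0.03), with 4 and 4 at an unadjusted p under 0.05, while DESeq2 called 2 and 1 and limma on FPKM 1 and 1. Of 14 macrophage transcription factors edgeR called 0 and 0 (medians -0.20 and -0.01), with 4 and 4 unadjusted, DESeq2 3 and 1 and limma 2 and 0. Of 14 tested niche signals and receptors edgeR called 0 and 0 (medians -0.29 and -0.35), with 4 and 6 unadjusted, DESeq2 1 and 4 and limma 4 and 4. The next lists hold genes for the clearing tasks of Kupffer cells. Of 19 tested receptors for scavenging and dead cell uptake edgeR called 0 and 0 (medians -0.14 and -0.04), with 3 and 1 unadjusted, DESeq2 0 and 0 and limma 2 and 0. Of 12 genes of iron and red cell recycling edgeR called 0 and 0 (medians 0.50 and 0.08), with 6 and 2 unadjusted, DESeq2 4 and 0 and limma 0 and 0. Among 17 partners of C1 and classical pathway genes edgeR called 1 at both times, C2, the protease substrate of activated C1, with 2 and 7 unadjusted, DESeq2 1 and 4 and limma 1 and 1. C2 had 110, 117 and 108 CPM in the 2-week libraries, 123, 113 and 102 CPM in the 5-week libraries and 80.9, 66.5 and 68.7 CPM in the TAA libraries. It rose 1.55-fold at 2 weeks (adjusted p = 0.0327) and 1.56-fold at 5 weeks (adjusted p = 0.0467) by edgeR's quasi-likelihood test, and both rhCYGB groups lay above TAA.

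Markers of other cells also differed between the groups, and their part in the members' values was not tested. Of 16 general macrophage and myeloid markers edgeR called 0 at 2 weeks and 0 at 5 weeks (medians -0.12 and -0.56), with 1 and 12 at an unadjusted p under 0.05, DESeq2 1 and 3 and limma on FPKM 2 and 7. Their summed level was 571 to 791 CPM in the 2-week libraries, 465 to 620 CPM in the 5-week libraries and 744 to 912 CPM in the TAA libraries, and 9 of the 16 lay below TAA without overlap at 5 weeks, as 13.4% of all genes did. Of 20 markers of monocyte-derived and scar-associated macrophages 3 fell at 2 weeks and 3 at 5 weeks by edgeR (medians -0.59 and -0.85), with 10 and 12 unadjusted, while DESeq2 called 7 and 10 and limma 10 and 10. By edgeR at 2 weeks these were the elastase gene Mmp12 (log2 change -1.36, edgeR adjusted p = 0.0153), Gpnmb (-1.70, edgeR adjusted p = 0.0240) and Cx3cr1 (-0.97, edgeR adjusted p = 0.0450). At 5 weeks they were Chil3 (-2.08, edgeR adjusted p = 0.0449), Cx3cr1 (-1.15, edgeR adjusted p = 0.0467) and the matrix gene Vcan (-1.56, edgeR adjusted p = 0.0488). Cx3cr1, the fractalkine receptor, had 3.22, 3.71 and 2.70 CPM in the 2-week libraries, 2.18, 3.54 and 2.80 CPM in the 5-week libraries and 7.07, 5.92 and 5.88 CPM in the TAA libraries. Of 11 tested T and NK cell markers edgeR called 3, all higher, at 2 weeks and 0 at 5 weeks (medians 1.60 and 0.94), with 7 and 3 unadjusted, DESeq2 6 and 1 and limma 5 and 0. At 2 weeks 8 of the 11 lay above TAA without overlap, as 17.3% of all genes did. Those that rose by edgeR were the chemokine gene Ccl5 (6.03-fold, edgeR adjusted p = 0.0457), Cd8b1 (5.87-fold, edgeR adjusted p = 0.0455) and Nkg7 (4.66-fold, edgeR adjusted p = 0.0473), and the summed level was 15.9 to 33.4 CPM in the 2-week libraries, 6.00 to 24.8 CPM in the 5-week libraries and 5.26 to 7.78 CPM in the TAA libraries. Among 10 dendritic cell markers 1 rose at 2 weeks, the interferon-induced gene Bst2 (1.65-fold, edgeR adjusted p = 0.0416; DESeq2 called 2 and limma 0), and 0 were called at 5 weeks by edgeR (0 unadjusted), DESeq2 or limma. None of 12 sinusoidal endothelial, 7 B and plasma cell and 14 hepatocyte markers was called at either time by edgeR. Unadjusted, 2, 0 and 6 of them passed at 2 weeks and 0, 0 and 6 at 5 weeks, DESeq2 called 0, 0 and 2 at 2 weeks and 0, 0 and 3 at 5 weeks, and limma called 1 sinusoidal endothelial marker at 2 weeks. Of 12 stellate cell markers Acta2 and Lum fell at 2 weeks (log2 changes -2.15 and -1.14, edgeR adjusted p = 0.0327 and 0.0392) and Acta2 fell at 5 weeks (-2.93, edgeR adjusted p = 0.0361), with 6 and 6 unadjusted, while DESeq2 called 4 and 6 and limma 5 and 6. Summed stellate levels were 505 to 808 CPM in the 2-week libraries, 390 to 801 CPM in the 5-week libraries and 1137 to 1685 CPM in the TAA libraries.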

How the data were processed

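Whole-liver RNA was made into poly(A)-selected, strand-marked paired-end libraries, per the labels' protocols. The authors deposited estimated counts and FPKM per gene. The tools were HISAT2 2.1.0 and StringTie 1.3.4d on mm10, with FastQC 0.11.7, per the submitters' processing notes. How StringTie output became counts, and whether strand was used, is not given in the sources used here. The deposited estimated counts are whole numbers. The FPKM values deposited by the authors served for levels between genes and for an alternative.

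Low genes were removed with filterByExpr of edgeR 4.0.16 at a count of 10 and a total of 15. The rest were scaled by TMM and tested by quasi-likelihood in R 4.3.3. The 9 libraries entered 1 fit with 3 groups, Benjamini-Hochberg adjustment ran over all 14731 genes, and calls were made at an adjusted p under 0.05. The SE is the log2 change divided by the square root of F, and intervals are 95%. DESeq2 1.42.0, limma 3.58.1, other scalings, filters, a length correction and left-out libraries were alternatives. The tests were tried on simulated data. The members, lists and rules for named genes were chosen with earlier results of these data known. The named genes are the members, up to 3 called genes per list and the 6 genes nearest in profile to Clec4f and to C1qb, on log2(CPM + 0.01). List symbols Trbc2, Ighm and Igkc were not matched.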

Additional observations from a re-analysis of the deposited data

How the results depend on the processing

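Genes called at 2 weeks numbered 488, and 1722 with library totals, 1713 with DESeq2, 1983 with limma on log2(FPKM + 1), 1023 with only the 2 groups compared, 12 with libraries 17, 18 and 23 left out, and 1 to 1095 with single libraries left out. The 1 Kupffer cell gene became 0 with upper quartile scaling, totals, FPKM and the 3 libraries left out, and 0 to 1 with single libraries left out. At 5 weeks 190 genes became 77 with upper quartile scaling, 504 with totals, 1188 with DESeq2, 105 without a filter, 1001 on FPKM, 1 with 2 groups only, 552 with the length trend removed, 7 with the 3 libraries left out, and 0 to 240 with single libraries left out, with 0 Kupffer cell genes in every alternative run. For 5 weeks against 2 weeks 3 genes became 788 with DESeq2, 5 on FPKM, 0 with 2 groups only, 7 with the length trend removed, 5 with the 3 libraries left out, and 1 to 1889 with single libraries left out. The 0 Kupffer cell genes became 1 with DESeq2 and 0 to 3 with single libraries left out. The share of calls that were higher was 59.6% at 2 weeks (45.1% with upper quartile scaling, 6.39% with totals, 7.31% on FPKM) and 53.2% at 5 weeks (41.6%, 7.54% and 6.89% under the same scalings).

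Of 540 log2 changes of members under alternatives, 34 changed sign, none of them a called change. At 2 weeks these were C1qb and C1qc at -0.12 and -0.23 with totals, -0.13 and -0.26 on FPKM (with Vsig4 at -0.011), and -0.10 and -0.21 with the length trend removed. With single libraries left out, they were Cd5l (-0.40 to 0.096, above 0 without 13, 17 or 18), Marco (-0.97 to 0.13, above 0 without 14, 17 or 18), Adgre1 (-0.54 to 0.043, above 0 without 17) and C1qc (-0.077 to 0.23, below 0 without 19). With libraries 17, 18 and 23 left out, Marco was at 0.69, Cd5l at 0.42 and Adgre1 at 0.40. At 5 weeks Vsig4 was at -0.072 with upper quartile scaling, -0.21 with totals, -0.0092 with the stricter filter, -0.20 on FPKM and -0.077 to 0.056 with single libraries left out (below 0 without 12 or 27), Folr2 at -0.034 with totals and on FPKM and -0.059 to 0.33 with single libraries left out (below 0 without 27), and Cd5l at -0.15 to 0.12 (above 0 without 13). For 5 weeks against 2 weeks Cd5l was at -0.015 with upper quartile scaling, -0.51 with the 3 libraries left out and -0.15 to 0.35 with single libraries left out (below 0 without 17, 18 or 23), and Timd4 at -0.58 to 0.13 (above 0 without 19). The median of all genes was itself -0.36 with totals and -0.20 on FPKM at 2 weeks, and -0.21 and -0.13 at 5 weeks. The cause of the sign changes was not tested. Where 1 library was left in a group, it was taken to vary like the others. No paired analysis was possible because the groups compared share no replicate numbers. For every member the counting error at its lowest count, at most 0.12 log2 units (Timd4, 152 reads), was below the SD within groups, 0.23 to 0.78 log2 units.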
